A study of Mus musculus with 6 samples.

Results

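Of the 24507 p53 peaks called in B cells after irradiation, 355 overlapped by at least 1 bp a peak in each of the other 3 wild-type lists (B cells mock, non-B cells mock and non-B cells IR) and no peak in irradiated Trp53-/- spleen. They were 1.45% of the B cells IR peaks. The 5 lists held 48115 peaks in all. These 355 sites, called in both splenic cell fractions with and without irradiation, are described here. They were chosen by measured values, since a peak enters a list only when its value passes the caller's limit, so their presence and rank in the 4 wild-type lists are a description and were not tested. Another 7 peaks met the 4-list condition but overlapped a Trp53-/- peak and were left out.

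The lists came from ChIP-seq, which sequences the DNA fragments recovered by an antibody, here the p53 antibody NCL-p53-CM5p. The wild-type lists were from Trp53+/+ mice of strain C57/Bl6 aged 8 weeks. Spleen cells were separated with beads against B220, a surface marker of B cells, into the bound fraction (B cells) and the cells depleted of it (non-B cells), which mixes several cell types. Mice were mock treated, or received 7 Gy and were examined at 4 h (IR). The control list was from unseparated spleen of C57/Bl6 Trp53-/- mice, also taken 4 h after 7 Gy, whose age the labels do not give, and held 83 peaks. Each group had 1 library, made from chromatin pooled across animals. No result below has a replicate error, and all 95% intervals (Wilson for a share, Newcombe for a difference of shares) cover counting error over peaks only.

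p53 is a transcription factor held at low level in resting cells by Mdm2, the ubiquitin ligase that marks it for degradation, and stabilised when DNA is damaged. It binds as a tetramer to a response element made of a pair of decamers, each with a purine run, a central C(A/T)(A/T)G and a pyrimidine run. Its best known targets halt the cell cycle (Cdkn1a) or start apoptosis (Bbc3, Bax), and lymphocytes are among the cells most prone to die after irradiation.

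Elements of sites that carry the findings are shown with 10 flanking bases in lower case and the 20 bases of the element in capitals, read 5′ to 3′ on the plus strand of mm9. The Bbc3 and Ier5 sites ranked highest over the 4 lists, the Cdkn1a, Zmat3 and Dyrk3 sites are strong promoter sites with few mismatches and the Rhoq line stands for a sequence that recurred at many sites. The Bbc3 element was found only by searching the whole B cells IR peak and lies outside the 600 bp around its midpoint. It also lies outside the B cells mock peak (chr7:16893537-16894759) but within the non-B cells mock peak (chr7:16893668-16894868). The Cd34 site has its decamers split by 1 base, in lower case.
Bbc3, chr7:16894835-16894854, 3 mismatches: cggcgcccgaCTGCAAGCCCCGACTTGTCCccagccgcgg
Ier5 region, chr1:156903454-156903473, 0 mismatches: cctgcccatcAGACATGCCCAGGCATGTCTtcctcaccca
Cdkn1a, chr17:29227873-29227892, 1 mismatch: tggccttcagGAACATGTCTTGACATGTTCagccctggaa
Zmat3, chr3:32263253-32263272, 0 mismatches: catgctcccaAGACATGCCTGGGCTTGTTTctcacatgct
Dyrk3, chr1:133035944-133035963, 0 mismatches: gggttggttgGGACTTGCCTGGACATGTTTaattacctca
Rhoq region, chr17:87356342-87356361, 0 mismatches: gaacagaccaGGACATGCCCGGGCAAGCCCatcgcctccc
Cd34 region, chr1:196821719-196821739, 0 mismatches: GAACATGTCTtGGACTTGCCT

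Each peak carries a deposited value, −log10 of the p-value from the authors' peak caller, which is not scaled between libraries, so levels are given beside each peak's percentile within its own list. Among the 355 sites the value ran from 8.86 over a median of 132 to 326 for irradiated B cells, and from 5.84 over 190 to 621 for irradiated non-B cells. Before irradiation it ran from 5.08 over 14.3 to 167 for the B fraction and from 5.08 over 12.5 to 165 for the non-B fraction. The sites lay at a median percentile of 97.4 (B) and 98.1 (non-B) after irradiation, against 79.9 (B) and 63.1 (non-B) in mock. The lists differ in length: the sites number 25.1 per 100 peaks of B cells mock and 49.9 of non-B cells mock, but 1.45 and 1.66 per 100 peaks of the B and non-B lists after irradiation, so percentiles cannot be compared between mock and IR. Of the 246 peaks in the top 1% of B cells IR, 113 were sites, and 128 sites had their best peak among the 214 in the top 1% of non-B cells IR. The top 1% of the mock lists comprised 15 (B) and 8 (non-B) peaks, and 15 and 8 sites had their best peak there. In the top 5% of all 4 lists there were 26 sites.

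**Figure D1:**
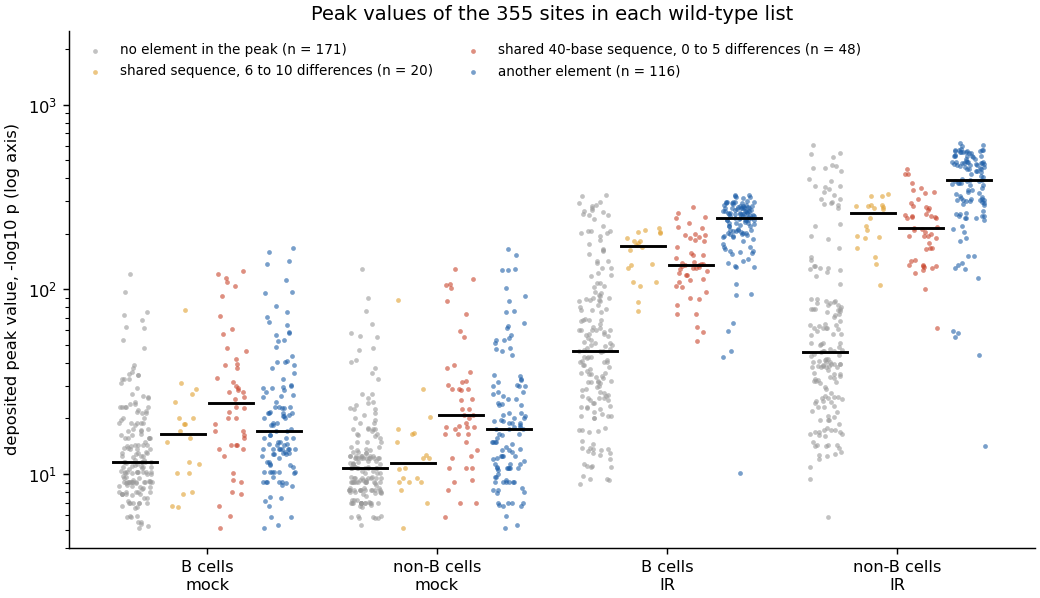
Deposited peak value (−log10 p, log axis) of each of the 355 sites in the 4 wild-type lists, split by what the B cells IR peak holds, with black bars at the medians. After irradiation the 116 sites with an element other than the shared sequence have medians of 242 (B cells) and 389 (non-B cells), against 46.3 and 46.0 for the 171 sites with no element, while the mock medians of these groups (17.2 and 17.5 against 11.6 and 10.8) lie closer together.

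The site ordered first by its lowest percentile over the 4 lists was in the promoter of Bbc3 (chr7:16892863-16895560), which encodes Puma, a BH3-only protein that starts apoptosis. Its values were 167 (B mock), 270 (B IR), 165 (non-B mock) and 488 (non-B IR), and no mock peak of either list had a higher value. The next site lay 43573 bp from the start site of Ier5, an immediate-early response gene (chr1:156901779-156904606). Its values were 158, 259, 154 and 488 in the same order. The promoter of Sp1, a general transcription factor, came next, at 121, 321, 129 and 602, and is the only site of the first 10 without an unsplit element in the peak. The others of the first 10 were nearest to Myo1g, Aff1, Rhoq, Mtmr10, Elmo1, Dnm3 and Pnrc1, and the lowest percentile among these 10 sites was 98.4.

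Spearman's rho over the 355 sites was 0.74 between the mock lists and 0.96 between the IR lists. Between mock and IR it was 0.32 (B) and 0.49 (non-B). These coefficients are descriptions over sites chosen by these same values, and the calling limit cuts off the lower end of the mock values. Among the 172 sites with no element in the peak, the mock and IR values had a rho of 0.01 (B) and 0.22 (non-B).

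**Figure D2:**
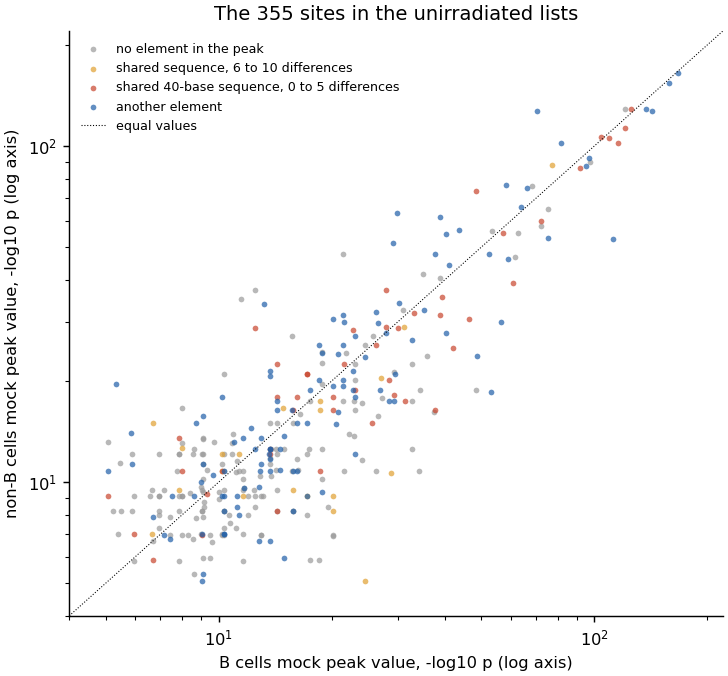
Mock peak value (−log10 p, log axes) of each of the 355 sites in B cells (horizontal) and non-B cells (vertical), coloured by what the B cells IR peak holds, with a dotted line of equal values. The sites follow the line (Spearman's rho 0.74), and of the 26 sites in the top 5% of all 4 lists 22 are coloured as holding an element.

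The rule did not read genome sequence, but it acts through peak strength, and the share of peaks with an element rises with strength, so shares are also given within bands of value. An unsplit element, with the central C and G of each decamer required and at most 3 mismatches, was found within 600 bp around the peak midpoint in 144 of the 355 sites, or 40.6% (35.6 to 45.7%). The share was 15.3% over all B cells IR peaks, and 3.10% in windows moved by 10 kb from the same 355 sites. Over the whole B cells IR peak the count was 183 of 355, or 51.5% (46.4 to 56.7%), against 14.7% over all B cells IR peaks. The sites are also wider, with a median of 966 bp against 340 bp, and moved windows of the same widths gave 4.23%.

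Peaks present in the IR lists and in only 1 mock list carried the element less often, but were also weaker, with a median B cells IR value of 56.1 (B mock only) and 37.5 (non-B mock only) against 132 at the sites. It was in the 600 bp window of 81 of 646 peaks that were also in B cells mock but not in non-B cells mock, or 12.5% (10.2 to 15.3%), which is 28.0 points lower (22.3 to 33.7). It was in 21 of 120 peaks that were also in non-B cells mock but not in B cells mock, or 17.5% (11.7 to 25.3%), 23.1 points lower (13.8 to 30.8). A class of strong peaks was the 4114 in the top quintile of B cells IR that overlapped a non-B cells IR peak and no mock peak. Their median value of 58.0 was close to the 56.1 of the B mock only peaks. They carried the element in 33.4% (32.0 to 34.9%), against the 12.5% of the B mock only peaks. What sets these 2 classes apart was not tested. The sites exceeded these strong IR-only peaks by 7.12 points (1.93 to 12.5), and by 17.3 points (11.9 to 22.7) over the whole peak. In a 200 bp window the difference turned to -8.59 points (-12.4 to -4.10), and when both sets were limited to the top 5% of values it was -2.28 points (-9.63 to 4.71).

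Bands of B cells IR value divided the 355 sites into strong sites with elements and weaker sites without. In the top 1% the whole peak held an element in 95 of 113 sites, or 84.1%, against 80.5% of the other peaks of that band. In the 1 to 5% band the shares were 74.7% of 99 sites and 62.8% of the others, a difference of 12.0 points (2.07 to 20.1). The shares were 26.7% against 32.6% in the 5 to 10% band and 12.8% against 19.5% in the 10 to 20% band. Below the top 20% only 1 of 74 sites held an element, or 1.35%, against 9.70% of the others, a difference of -8.35 points (-9.54 to -2.42). Taken over the top 5%, 169 of 212 sites held an element (79.7%) against 65.1% of the others, a difference of 14.6 points (8.04 to 20.3), and among the remaining 143 sites 14 did (9.79%). The whole-peak measure gives wider peaks more room. In 600 bp windows the shares were 74.3% against 72.9% in the top 1%, 51.5% of the sites against 532 of 887 others in the 1 to 5% band (-8.46 points, -18.7 to 1.68) and 13.3% against 31.7% in the 5 to 10% band (-18.3 points, -26.8 to -1.80). The direction in the 1 to 5% band thus depended on the window.

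**Figure D3:**
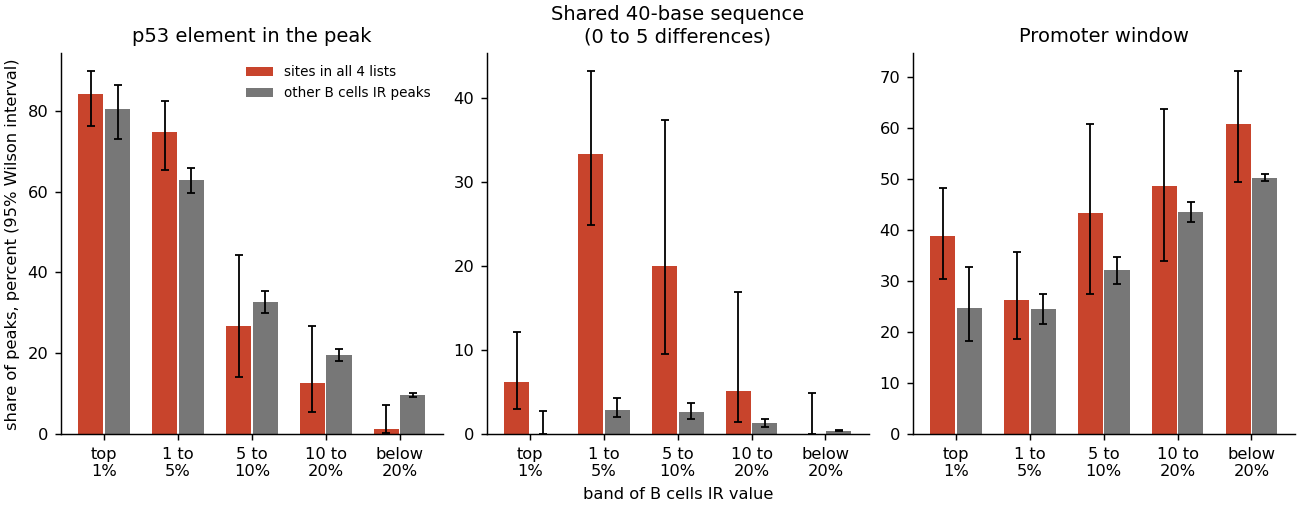
Share of peaks (percent, with 95% Wilson intervals) that hold an unsplit p53 element, hold a copy of the shared 40-base sequence, or lie in a promoter window, by band of B cells IR value, for the 355 sites and for the other B cells IR peaks. Element shares fall from 84.1% to 1.35% across the bands among the sites, and promoter shares rise to 60.8% in the lowest band. The shared sequence, taken from the sites themselves, stands at 33.3% in the 1 to 5% band against 2.93% of other peaks.

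Of the 144 elements in the 600 bp windows, 39 had 0 mismatches, 59 had 1, 26 had 2 and 20 had 3. The 0-mismatch share was 27.1%, against 11.5% of the elements in strong IR-only peaks, a difference of 15.6 points (8.77 to 23.5), although the sites are the stronger class. With strength matched, a 0-mismatch element was in the window of 22 of 113 sites and 24 of 133 other peaks of the top 1%, a difference of 1.42 points (-8.26 to 11.4). In the top 5%, without peaks that hold a copy of the shared sequence described next, the shares were 13.6% and 9.63%, a difference of 4.01 points with an upper bound of 10.6. Both intervals included 0. At least 1 decamer had AT as its middle bases in 88.9% of the elements against 75.5% in strong IR-only peaks, a difference of 13.4 points (6.82 to 18.1). Both decamers had it in 24.3% against 23.3%, a difference of 0.977 points (-5.71 to 8.89). These AT shares were not matched for strength. Among windows without an unsplit element, decamers split by 1 to 15 bases with at most 2 mismatches were in 23 of 211 sites (10.9%, 7.37 to 15.8%) and in 38 of 344 moved windows (11.0%, 8.15 to 14.8%).

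A large part of these elements came from a sequence present in many copies. Of the 183 sites with an element in the peak, 30 had the identical 40 bases around it, on either strand, and 10 more had the same 40 bases with 1 change, A26G, counted from 1 at the 5′ end of the sequence as written here. The element has 0 mismatches in the commoner form.
Commonest form: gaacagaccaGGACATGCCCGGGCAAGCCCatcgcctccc
Form with A26G: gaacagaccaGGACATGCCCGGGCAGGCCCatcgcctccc
This pattern was noticed in the sequences of the sites and then counted. The form counted is the commonest one at these sites, which raises its share there. Its shares at the sites are therefore a description and no test. The genome held 320 copies with 0 to 5 differences from the commonest form over its 40 bases, 111 of them identical. The copies stayed alike well beyond the element: over a stretch of 244 bp, from 77 bases before the 40 to 127 after, the commonest base was held by at least 80% of the copies on a running mean of 20 bases. No repeat annotation was used here, so the sequence is not given a family name.

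**Figure D4:**
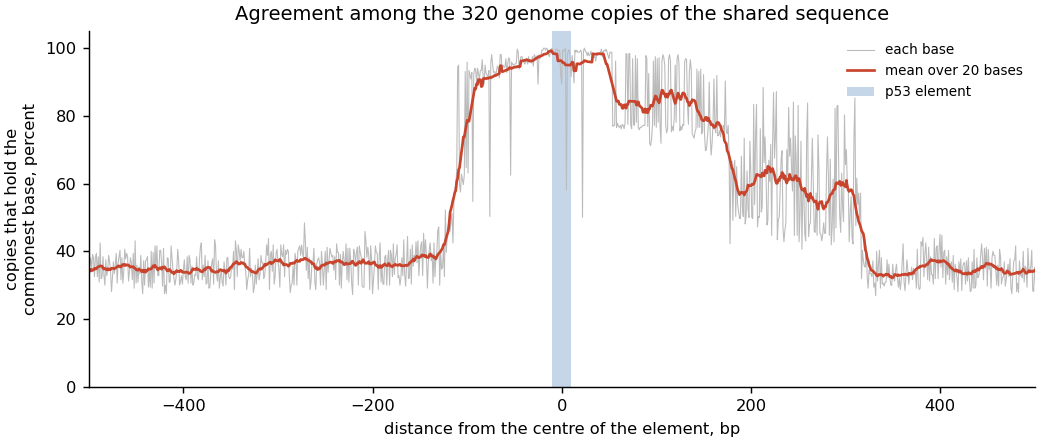
Percent of the 320 genome copies that hold the commonest base at each position, by distance in bp from the centre of the element, all copies read in the same direction, with the mean over 20 bases in red and the 20-base element shaded. Agreement has a median of 95.8% within the 244 bp stretch and of 35.3% far outside it.

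A copy with 0 to 5 differences lay in 48 of the 355 sites, or 13.5% (10.4 to 17.5%). Over all B cells IR peaks the share was 0.890%. It was 1.80% of the strong IR-only peaks, so the sites exceeded them by 11.7 points (8.52 to 15.7). Among peaks in the top 5% it was 18.9% of 212 sites and 2.55% of 1020 others, a difference of 16.3 points (11.5 to 22.2). Copies with 6 to 10 differences were found in a further 20 sites, or 5.63%, against 5.03% of strong IR-only peaks. Counted with a form taken from the sites, near-identical copies were more frequent at the sites than at other strong peaks. The shares of the diverged form were close.

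Counted from the genome, 218 of the 320 copies (68.1%, 62.8 to 73.0%) lay in a B cells IR peak, 224 in a non-B cells IR peak and 0 (0 to 1.19%) in a Trp53-/- peak, and 48 lay in 1 of the 355 sites. Of the 111 identical copies, 30 lay in a site (27.0%, 19.6 to 36.0%). Of the 209 copies with 1 to 5 differences, 18 did (8.61%, 5.52 to 13.2%). The reference form was chosen as the commonest at the sites, so this order was favoured by the choice. The 48 sites were on 19 chromosomes.

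Sites with a copy were strong before irradiation as well as after it. Their median mock value was 24.3 (B) and 20.9 (non-B), against 17.2 and 17.5 for the 116 sites with another element. After irradiation the order was the other way round, with medians of 135 (B) and 214 (non-B) against 242 and 389. Of the first 10 sites by lowest percentile, 3 held a copy (Myo1g, Rhoq and Elmo1), and of the 26 in the top 5% of all 4 lists, 8 did. The Rhoq site (chr17:87354700-87357782) had values of 104 (B mock), 218 (B IR), 106 (non-B mock) and 378 (non-B IR). The site in the promoter window of Rpl24 (chr16:55962468-55964022) had 91.7, 73.5, 86.3 and 130, and is 1 of only 2 sites with an element whose mock value exceeded its IR value in B cells.

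The mock peaks tended to lie beside the copies rather than over them. A B cells mock peak covered the centre of the copy at 13 of the 48 sites (27.1%, 16.6 to 41.0%), and a non-B cells mock peak at 9 (18.8%, 10.2 to 31.9%). At the 116 sites with another element a mock peak covered its centre in 101 (87.1%, 79.8 to 92.0%) and 102 (87.9%, 80.8 to 92.7%). The median distance from the copy to the best mock midpoint was 161 bp (B) and 168 bp (non-B), against 47.0 and 36.0 bp for another element. Reads from within a repeated stretch cannot be assigned to 1 copy by sequence alone, and what read placement contributes to these peaks was not tested. The median copy number of the 31-base words in the 600 bp window was above 1 at 11 of the 48 sites and reached 96.0 at the Ghitm site.

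**Figure D5:**
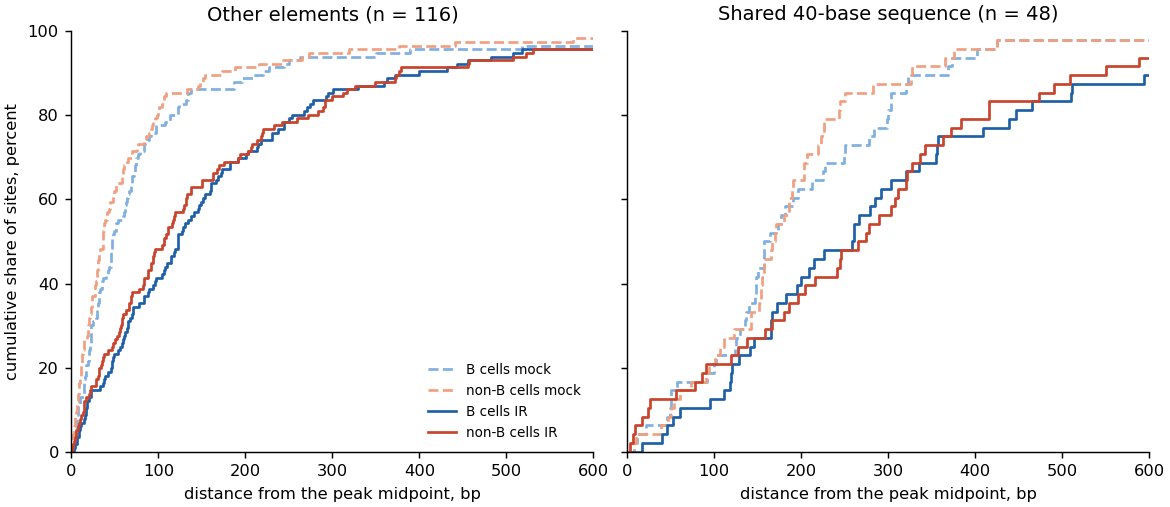
Cumulative share of sites (percent) by distance in bp from the peak midpoint to the element centre, for the 116 sites with another element (left) and the 48 with the shared sequence (right), 1 line for each wild-type list, drawn to 600 bp. On the left the mock lines (dashed) rise earliest, with medians of 47.0 and 36.0 bp, and on the right all 4 lines rise later, with mock medians of 161 and 168 bp.

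Without the 68 sites with a near-identical or diverged copy, and without like peaks among the others, the element share in the 600 bp window was 98 of 287 sites, or 34.1%, against 28.7% of strong IR-only peaks, a difference of 5.42 points whose interval included 0 (-0.0199 to 11.3). Over the whole peak the difference was 11.0 points (5.26 to 16.9). The 0-mismatch share among elements was 21.4% against 12.3%, a difference of 9.17 points (1.90 to 18.5). Elements with AT in the middle of at least 1 decamer made up 84.7% against 69.7%, with an interval of 6.20 to 21.5 points for the difference. For AT in both decamers the shares were 35.7% against 29.0%, with an interval of -2.46 to 16.9 points. These contrasts were not matched for strength or width. Over all 355 sites the median value was 132 against 58.0, and the median width 966 against 590 bp. Within the top 5% and without copies, the element difference from the other peaks was 4.69 points (-3.81 to 12.7) in the 600 bp window. Over the whole peak it was 11.8 points (3.64 to 19.1). In the same band the 0-mismatch difference in the window, given above, was 4.01 points, with an interval that included 0.

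Over all 183 sites with an element in the B cells IR peak, distances were measured in peaks of different width, and the midpoint of a wider peak can lie farther off. The median distance from the element centre to the peak midpoint was 70.0 bp (B mock) and 59.0 bp (non-B mock), with median peak widths of 312 and 178 bp. After irradiation it was 146 bp (B) and 120 bp (non-B), with widths of 1383 and 1374 bp. Relative to peak width the order was the other way round, with a median of 0.273 and 0.288 in mock against 0.0974 and 0.0925 after irradiation, and the best mock peak covered the element centre at 65.6% (B) and 63.4% (non-B) of these sites. The mock lists also allowed narrower peaks, from 55 and 53 bp, where the IR lists began at 175 and 174 bp. A 600 bp window around the non-B cells mock midpoint held an element at 172 sites, or 48.5% (43.3 to 53.6%), against 40.6% around the B cells IR midpoint.

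Of the 355 sites, 147 (41.4%, 36.4 to 46.6%) had their midpoint in a promoter window, reaching 5 kb before and 2 kb past an annotated start site, below the 47.6% of all B cells IR peaks and 4.49 points above the strong IR-only peaks (-0.735 to 9.88). By midpoint, 178 sites lay between genes, 147 in introns, 20 in UTRs, 5 in coding exons and 5 in noncoding exons. Sites with an element in the peak were in promoters in 31.1% of cases (57 of 183) and sites without in 52.3% (90 of 172). In the top 1% band 38.9% of the sites were in promoters against 24.8% of the other peaks, a difference of 14.1 points (2.48 to 25.4). Within 1000 bp of a protein-coding start site lay 25 of the sites with an element and 66 of those without.

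The lists of p53 genes used here were chosen with earlier results of these data known. Of 22238 protein-coding genes, 0.643% had a site in the promoter window, and 39.3% had any B cells IR peak there. Of 12 cell cycle arrest genes 5 had a site in the promoter and 10 had any B cells IR peak there. Cdkn1a, the inhibitor of cyclin-dependent kinases, had values of 41.2 (B mock), 318 (B IR), 44.4 (non-B mock) and 621 (non-B IR) (chr17:29226555-29229575). A further site lay at -12133 bp from its start site, in the promoter window of the noncoding gene Gm16197, at 22.8, 323, 21.5 and 528. Both rank in the top 1% of each IR list and have an element with 1 mismatch.

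The other arrest genes were Ccng1, Psrc1, Ckap2 and Btg2. The value at Psrc1, a spindle protein gene, was 40.4 (B mock), 326 (B IR), 27.9 (non-B mock) and 599 (non-B IR). Ccng1, which encodes cyclin G, had 27.9, 220, 27.9 and 437. Ckap2, a spindle-associated protein gene, had 23.1, 223, 27.3 and 315. Btg2, an antiproliferative gene, had 9.08, 208, 9.32 and 277, and no unsplit element in its peak. Its IR value was thus in the top 1% of both lists from a mock value near the middle of its lists. Gtse1, Gadd45a, Sfn, Plk2, Plk3, Rb1 and E2f7 had no site.

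Of 16 annotated apoptosis genes, 4 had a site in the promoter and 15 had any B cells IR peak there. Beside Bbc3 these were Bax, Aen and Zmat3. Bax, the pore-forming effector of the mitochondrial pathway, had values of 29.1 (B mock), 298 (B IR), 51.4 (non-B mock) and 462 (non-B IR). Aen, an apoptosis-enhancing nuclease, had 59.0, 266, 46.1 and 447. Zmat3, an RNA-binding protein gene, had 26.6, 225, 29.8 and 474, with the midpoint of the peak in an intron. Bcl2l11, which encodes the BH3-only protein Bim, had a site in its gene body at 21.5, 264, 20.1 and 432. The death receptor genes Fas and Tnfrsf10b, and Pmaip1, Apaf1 and Perp, had none.

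Of 11 genes of p53 feedback and family, 1 had a site in the promoter and 8 had any B cells IR peak there. It was Trp53inp1, at 21.5 (B mock), 176 (B IR), 47.9 (non-B mock) and 363 (non-B IR). The site nearest to Mdm2 had its midpoint at -7126 bp from the annotated start site, outside the promoter window, at 18.8, 199, 24.2 and 297. Of 14 signalling and surface genes, 3 had a promoter site and 13 had any B cells IR peak there. The 3 were Phlda3 (an inhibitor of Akt), Rap2b (a small GTPase) and Fyn (a Src-family kinase). Tnfsf8, the ligand of CD30, had a site in its body at 29.9, 319, 63.2 and 607. The Fyn site had 61.5, 326, 46.7 and 543, without an unsplit element in the peak. Of 6 annotated noncoding genes, 2 (Gm16197 and Pvt1) had a promoter site and 5 had any B cells IR peak there. The Pvt1 site, in the promoter window of that noncoding gene and 51851 bp from the start site of Myc, had 18.5, 287, 20.1 and 436.

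No site fell in the promoter or body of the 12 genes of repair and nucleotide supply, of which 10 had a B cells IR peak in the promoter. The same was so for the 14 annotated genes of metabolism, redox and mTOR (13 with such a peak) and the 6 of autophagy and lysosome (5 with such a peak). At the background of 0.643% of genes, lists of these sizes would hold few or no such genes, so these zeros say nothing particular about the lists. Sesn2 and Ddit4, regulators of mTOR signalling, had a site within 50 kb. The Sesn2 site, at -5126 bp, lay just outside the promoter window, and the Ddit4 site lay at 49956 bp. No promoter site was found at the 8 B cell, 8 T cell and 5 annotated myeloid and NK cell marker genes. In the same order, 8, 2 and 2 of these had any B cells IR peak in the promoter. At the same background, these zeros too say nothing particular about the lists. Of the B cell markers, Pax5 had a site in its body, at 37.4 (B mock), 75.3 (B IR), 16.2 (non-B mock) and 47.5 (non-B IR). A stronger site lay -12367 bp from the start site of Cd79a, at 43.6, 244, 56.5 and 388 in the same order. Its midpoint fell in a UTR outside Cd79a. The T cell markers Cd3e and Cd3g had the same site within 50 kb, at 5.47, 45.9, 11.4 and 76.3, with its midpoint in a UTR outside both genes. The share of all genes with a site within 50 kb was not counted, so nearness to these genes is a description only. Binding does not measure how pure the fractions were.

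The 10 highest B cells IR values among sites with a 0-mismatch element in the window ran from 259 to 295. The nearest protein-coding start sites were those of Gm9958, Dyrk3, Orc5, Map3k7, Zfp36l1, Car2, Csnk1g1, Rreb1, Trcg1 and Ier5. The site labelled Zfp36l1 lies 392724 bp from that start site, in an intron of Rad51l1, and holds an identical copy of the shared sequence. The Dyrk3 site (chr1:133034805-133037270), near a protein kinase gene, had values of 96.8 (B mock), 295 (B IR), 92.2 (non-B mock) and 556 (non-B IR). The Orc5 site, in an intron of a gene of the origin recognition complex, had 5.87, 283, 11.3 and 529. Both elements match the consensus fully and both sites are in the top 1% after irradiation, but the mock percentiles were 99.2 and 98.3 at Dyrk3 and 3.47 and 55.3 at Orc5. A full match therefore went with high and with low values before irradiation.

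The sites without an element were the weaker part of the set. Their median value was 46.6 (B) and 46.1 (non-B) after irradiation, against 205 and 306 for sites with an element in the peak. In mock the medians were 11.6 and 10.8 against 18.6 and 17.5. The mock value exceeded the IR value in B cells at 23 of the 355 sites, of which 21 had no element and 15 were in promoters, and in both fractions at 10, none of them with an element. Since values are not scaled between libraries, such a site is not shown to have lost binding after irradiation. The Gapvd1 promoter site had 23.2 (B mock), 17.3 (B IR), 22.5 (non-B mock) and 19.5 (non-B IR). A site on chromosome 17 (chr17:39983538-39983740) lay 60 bp from a Trp53-/- peak and had IR values of 13.0 (B) and 78.1 (non-B). Its B cells IR peak is 203 bp wide, but its non-B cells IR peak is 3998 bp wide and reaches that Trp53-/- peak. A B cells IR peak left out for overlapping a Trp53-/- peak lies beside it (chr17:39979949-39983470). This chromosome 17 site is the only site within 10 kb of a Trp53-/- peak.

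Some strong sites also lacked an unsplit element in the peak. Among the 212 sites in the top 5% of B cells IR there were 43, with Fyn at 326 and Sp1 at 321 the highest. The Cd34 site shown above had values of 35.0 (B mock), 194 (B IR), 41.7 (non-B mock) and 472 (non-B IR), with decamers of 0 mismatches split by 1 base. It was chosen for display after its values were seen.

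Sites lay near each other at several loci. Another site lay within 50 kb of 48 of the 355, in 22 groups of at most 3. The Ier5 group held 3 sites over 45319 bp, with B cells IR values of 259 at the distant site that ranks second, and of 68.0 and 25.9 at the gene. The groups of Tifab and Bzrap1 held 3 sites each within 2467 and 2915 bp. The best non-B cells IR peaks of the 355 sites were 351 distinct peaks, and 3 of these were shared, so neighbouring sites are not independent. More than 1 non-B cells IR peak, up to 3, was met by 25 sites. In mock, 103 sites had more than 1 B cells mock peak, up to 5, and 86 had more than 1 non-B cells mock peak, up to 4.

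In the IR lists, differences of rank between the fractions were largest at weak sites. The non-B percentile was highest above that of B cells at the chromosome 17 site named above, with a B minus non-B difference of -66.9 points. The non-B value there belongs to the wide peak that reaches a Trp53-/- peak. Zc3h7a followed at -66.8 and Bzrap1 at -63.4. The reverse was largest at Lyn, a Src-family kinase of B cells, at 48.3 points, with values of 17.2 (B mock), 40.4 (B IR), 12.2 (non-B mock) and 14.2 (non-B IR). In mock, the Cd244 site, near a receptor gene of NK cells, was at percentile 91.3 (B) and 0.351 (non-B), with values of 24.6 and 5.08, and the Sfi1 site at 1.66 and 79.4, with 5.33 and 19.6. The other sites with the largest gaps were nearest to Tmco7 and Jkamp (B above non-B after irradiation), Inpp5b and Clec2d (non-B above B in mock) and Olfr545 and Ets2 (B above non-B in mock). The lowest B cells IR values of the set were 8.86 at a site near Bzrap1, 9.34 at Zc3h7a and 9.41 at Zfp692, none with an element in the peak. With 1 library per group these differences have no replicate check.

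Base composition of the 600 bp windows hardly set the sites apart. The median GC content was 47.8% at the sites, 47.8% in strong IR-only peaks and 49.5% over all B cells IR peaks. Windows with a median 31-base copy number above 1 were 27 of 355 (7.61%, 5.28 to 10.8%), against 1.92% over all B cells IR peaks and 3.99% of strong IR-only peaks. With peaks that hold a copy of the shared sequence left out, they were 2.44% and 1.10%, a difference of 1.34 points (0.0337 to 3.87).

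At the edge of the choice, the smallest overlaps that admitted a site were 48 bp with a B cells mock peak (near Ube2f), 5 bp with a non-B cells mock peak (near Bzrap1) and 121 bp with a non-B cells IR peak (near Pum2). Just outside, 646 peaks lacked only a non-B cells mock peak, the nearest by a gap of 131 bp, 120 lacked only a B cells mock peak, the nearest by 493 bp, and 4 lacked only a non-B cells IR peak, the nearest by 179 bp.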

How the data were processed

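Of the libraries of the series, the 5 with a peak list were used. Per the study's methods and the submitters' processing notes, reads were masked at low base quality, aligned to mm9 with BWA 0.6.2, and peaks were called with MACS per library. The deposited column is, judged from its values, −log10 of the p-value given by the authors' peak caller. The stated limit of 1e-08 corresponds to a value of 8, and lists reach down to 5.01. Depth is unknown, and a missing peak may be a peak not called.

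The set of sites and the gene lists were chosen with earlier results of these data known. Where several peaks of a list met a site, the highest value was used. Elements were sought as described in the report, on NCBIM37 sequence, with genes from GENCODE vM1 (95495 transcripts). Sites named were the 10 first by lowest percentile, those at listed genes, the 10 with a 0-mismatch element and highest value, the 3 largest rank differences each way and the 3 lowest; Gapvd1, Rpl24, Cd34, Ghitm and neighbouring groups were named after their values were seen. The shared sequence was sought on both strands of 22 chromosomes. The share of soft-masked bases was not computed, since the reference is not soft-masked. No p-value was computed over peaks, which do not replicate each other. Overlap, element and interval steps were tested on made data and recovered 5 of 5 known quantities. The overlap checks used a simulated list of 20000 peaks and the element checks random windows with placed elements. The interval check compared sets of counts with statsmodels. Alternatives covered overlap rules, values, lists required, mismatches, windows and promoter definitions. Python 3.11.15, numpy 2.4.6, pandas 2.3.3, pysam 0.24.0, numba 0.67.0 and matplotlib 3.10.9 were used.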

Additional observations from a re-analysis of the deposited data

How the results depend on the processing

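No paired analysis was possible because 1 library stands for every group. The number of sites was 350 to 362 under other overlap, anchoring, merging, filter and chromosome rules and 277 with a value of at least 8 in each wild-type list. It was 475 without the B cells mock requirement and 1001 without the non-B cells mock one, where the element share moved to 34.7 and 22.5%. The element share was 34.9% with at most 2 mismatches, 17.5% in a 200 bp window and 51.5% over the whole peak. In settings chosen after seeing the data it was 46.8 and 48.5% around the B and non-B cells mock midpoints and 34.1% without peaks that hold the shared sequence. The difference from strong IR-only peaks was -8.59 points in a 200 bp window, -2.28 within the top 5%, 17.3 over the whole peak and 13.1 against the widest quintile. The promoter share was 28.2% within 1 kb of a start site, and its difference turned to -5.33 points against the widest quintile. The causes of these changes were not tested. The remaining settings moved these shares and differences by less than their intervals. The element difference was still 2.41 points (-2.86 to 7.82) with at most 4 mismatches. It was 3.12 points (-2.14 to 8.53) with spacers of 0 to 15 bases and at most 2 mismatches. Both intervals include 0, unlike that of the main setting. With at most 2 mismatches it was 9.09 points (4.13 to 14.4), and without windows of 31-base copy number above 1 it was 6.56 (1.29 to 12.1). Each list rests on 1 library of unknown depth.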
